A study of Mus musculus with 4 samples.

Results

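The Hox genes of the A, B, C and D clusters were followed in 4 clonal mouse mammary tumor cell lines. Apart from Hoxa5, their listed values were close across the lines. The genes were taken as every probe set listed with a single gene symbol of a Hox cluster gene. This gave 37 genes with 1 probe set each, out of 23410 probe sets with a gene symbol. For 24 of the 37, all 4 lines lay below the median of all values, where signal over background is unknown and a change in transcripts may be understated. The 37 were 10 genes in Hox A and 9 each in Hox B, Hox C and Hox D. A probe set listed under both Hoxb8 and Hoxb7 was left out of the 37, and its levels were 5.70 in M1 and 5.77 in M2, against 5.64 in E1 and 5.76 in E2.

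RNA was measured on Affymetrix mouse gene arrays, 1 array per line, as normalized log2 expression levels, on which a difference of 1 is a 2-fold difference. M1 and M2, the mesenchymal-like lines, were kept in MEGM (a growth medium for mammary epithelium) with low serum, EGF, insulin, hydrocortisone and an extract of bovine pituitary. E1 and E2, the epithelial lines, were kept in RPMI with high serum, so the medium and the type of the cells cannot be told apart. Their common source was a mammary tumor that arose in a female FVB mouse (FVB/N in the methods) carrying Tg MMTV/neu, a rat neu oncogene driven by the mammary tumor virus promoter, after sorting on neu and CD24 and cloning by limiting dilution. Each line is 1 clone, and M1 formed no tumor in mice while the other 3 did. Nothing in the labels says that a line was grown more than once, so a p-value here reflects only how far apart the clones lay.

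Hox genes encode homeodomain transcription factors that give cells their position along the body axis. Within a cluster they lie in the order in which they act from head to tail, and genes at the same place in different clusters, the paralogs, descend from a common ancestor and are numbered alike from 1 to 13. Polycomb proteins keep clusters silent and Trithorax proteins keep them active, so that adult cells hold the pattern set in the embryo. Several Hox genes are expressed in the mammary gland, and Hox levels are altered in many human breast cancers.

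The array medians lay between 6.75 and 6.85, and the median over all values was 6.78. Markers of the labelled types were partly separated. The adhesion gene Cdh1, which encodes E-cadherin, was at 6.70 and 6.51 in M1 and M2, against 12.15 and 12.31 in E1 and E2. Epcam, another epithelial adhesion gene, was also called lower in the M lines, and the mesenchymal regulators Zeb1 and Twist1 were called 3.59 and 3.36 log2 units above the E lines. Vim was 0.83 higher and did not pass (adjusted p 0.0896), and the epithelial keratins Krt8, Krt18 and Krt19 and the matrix gene Fn1 did not pass either. Of 10 epithelial markers 6 were called lower, and of 10 mesenchymal markers 5 were called higher, beside 3.73% of all probe sets in either direction. None of 6 leukocyte, 6 endothelial, 7 fibroblast or 5 adipocyte markers was called between the types, and 0, 1, 1 and 1 of them had an unadjusted p under 0.05. Type means were still at least 2-fold apart for 2, 1, 2 and 2 of them, so the lack of a call does not show equal levels. The adipocyte marker Fabp4 was 3.61 higher in the M lines, at 7.20 in M1 and 10.77 in M2, both above E1 and E2. The fibroblast marker Dcn was 2.36 higher, at 10.08 in M1 and 5.74 in M2, against 5.49 in E1 and 5.62 in E2. M2 lay just above the E lines there, so most of the Dcn difference came from M1. The median difference was 0.01 over the 7 fibroblast markers and 0.43 over the 5 adipocyte markers.

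Of the 37 Hox genes, 1 differed between the mesenchymal-like and the epithelial lines. Hoxa5 fell, and 0 rose. That is 2.7% of the Hox genes, beside 3.73% of all probe sets tested in either direction and 2.02% lower in the M lines, by limma at an adjusted p under 0.05. The type means lay within 0.3 log2 units of each other for 35 of the 37 genes, and the exceptions were Hoxa5 and Hoxd12. The median difference, M minus E, was -0.02 over the Hox genes and 0.00 over all probe sets tested, and the median size of the difference was 0.10 and 0.16. Only Hoxa5 had type means at least 2-fold apart, beside 9.73% of all probe sets. That background depends on level. It was 3.72% among probe sets whose mean lay below the median of all values, where 28 of the Hox genes were. Among those at or above it, where 9 were, it was 13.9%. The share called by limma depended on level too, at 0.993% below the median and 5.63% at or above it. In RNA from a whole culture, fewer cells expressing a gene and less RNA per cell cannot be told apart.

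**Figure D1:**
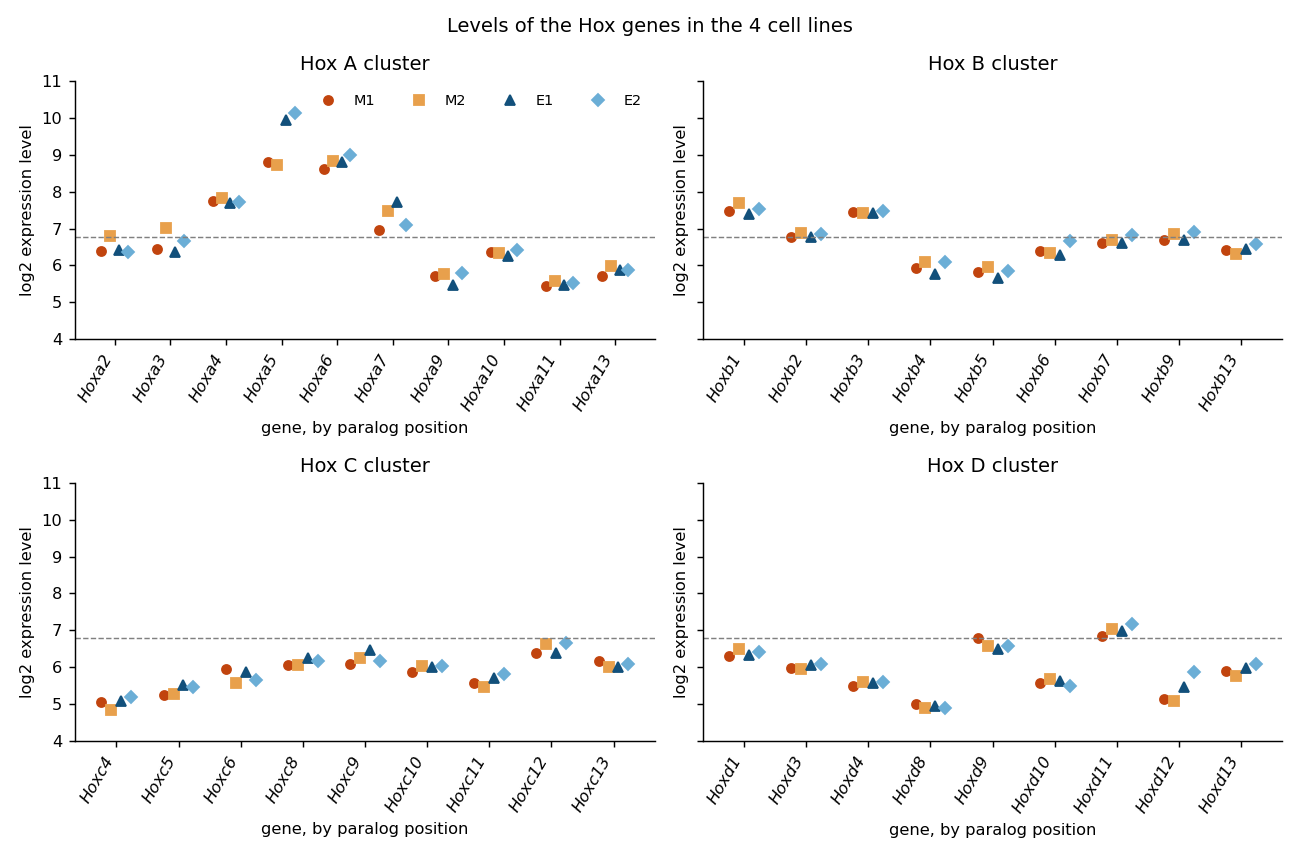
Log2 expression level (vertical axis) of each of the 37 Hox genes in M1, M2, E1 and E2, 1 point per array, in 4 panels by cluster, with genes ordered by paralog position. The dashed line is the median of all values, 6.78. Hoxa5, at 8.79 and 8.72 in the M lines and 9.94 and 10.13 in the E lines, is the 1 gene whose type means are at least 2-fold apart. Heights of different genes are from different probes and are not compared.

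Hoxa5, a central Hox gene required in the mouse for development of the lung and respiratory tract and long studied in human breast cancer, was the 1 member that passed. Its level was 8.79 in M1 and 8.72 in M2, against 9.94 in E1 and 10.13 in E2. Both M lines lay below both E lines, and each pair was close. The mean was 8.76 ± 0.05 in the mesenchymal-like lines and 10.03 ± 0.14 in the epithelial lines (SD, n = 2 each). The difference was -1.28 log2 units, a 2.42-fold lower level in the M lines, with a 95% interval from -1.63 to -0.93 and a limma adjusted p of 0.0241. All 4 values were above the median of all values. The call was lost without either epithelial array: the adjusted p was 0.148 without E1 and 0.185 without E2, fits in which limma called 0 probe sets of any gene and 2579 and 2651 had an unadjusted p under 0.05. With clone number as a block, which pairs M1 with E1 and M2 with E2 although the numbers mark no shared origin, it was 0.105, and with values below the median raised to it 0.122.

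Hoxa5 lies on chromosome 6 in the GRCm38.p6 annotation, at chr6:52201754-52204587 on the minus strand, between Hoxa4 and Hoxa6. A long transcript model of Hoxa3 and the non-coding RNA Hoxaas3 overlap it there, and Hoxa6 is overlapped by the same pair. The strand that each array probe reads was not checked here. The 250 bases before the start of Hoxa5, the gene that fell, are shown with those of Hoxa6, its upstream neighbour, which did not pass. They are RefSeq sequence on the minus strand, at chr6:52204588-52204837 and chr6:52208673-52208922. Capitals mark a CCAAT box, searched on both strands as CCAAT, here read on the opposite strand.
Hoxa5: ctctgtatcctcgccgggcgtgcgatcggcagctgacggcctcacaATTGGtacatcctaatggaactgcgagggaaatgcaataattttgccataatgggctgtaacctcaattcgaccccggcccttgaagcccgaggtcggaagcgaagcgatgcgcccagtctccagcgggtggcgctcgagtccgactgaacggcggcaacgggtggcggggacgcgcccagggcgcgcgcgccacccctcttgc
Hoxa6: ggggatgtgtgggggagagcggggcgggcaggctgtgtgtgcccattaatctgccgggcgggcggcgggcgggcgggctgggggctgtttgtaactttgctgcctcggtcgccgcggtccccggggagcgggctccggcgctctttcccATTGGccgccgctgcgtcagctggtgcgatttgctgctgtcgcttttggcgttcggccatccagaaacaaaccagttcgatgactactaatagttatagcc
Each window held 1 such box and none of the other 5 motifs searched on both strands, which were the TATA box TATAAA, the retinoid half-site AGGTCA, the E-box CAGGTG, the homeodomain core TAATTA and the combined Hox and Pbx site TGATNNAT. The Hoxa5 window had 63.6% G+C and 28 CpG dinucleotides, and the Hoxa6 window 65.2% and 24. Windows were found for 21 Hox genes, 23 windows in all, with a median of 59.2% G+C and 13 CpG. The median over all 32851 RefSeq windows of this length was 52.4% and 6. The CCAAT box was in 13 of the 23 Hox windows and in 33.8% of all windows. The other motifs were in 3, 6, 0, 2 and 3 Hox windows, in the order given above, and in 12.4%, 14%, 17.2%, 4.84% and 7.68% of all windows. A match of letters describes the window and shows no binding.

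The genes on either side of Hoxa5 did not pass. Hoxa6, also a central gene, was at 8.62 and 8.82 in M1 and M2, against 8.79 and 8.98 in E1 and E2. Its difference was -0.17, with a 95% interval from -0.56 to 0.23. Hoxa4, on the other side, was at 7.74 and 7.82 in the M lines and at 7.68 and 7.72 in the E lines, a difference of 0.08 with an interval from -0.22 to 0.38. Neither interval overlapped that of Hoxa5. The other genes of Hox paralog group 5 did not pass either. Hoxb5 was at 5.82 and 5.95 in M1 and M2, against 5.65 and 5.85 in E1 and E2. Hoxc5 was at 5.24 and 5.27 in the M lines and 5.51 and 5.45 in the E lines, with a difference of -0.22 and an adjusted p of 0.396. Apart from genes named by the rules given with the data processing, the genes named above and below were chosen after their values were seen.

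**Figure D2:**
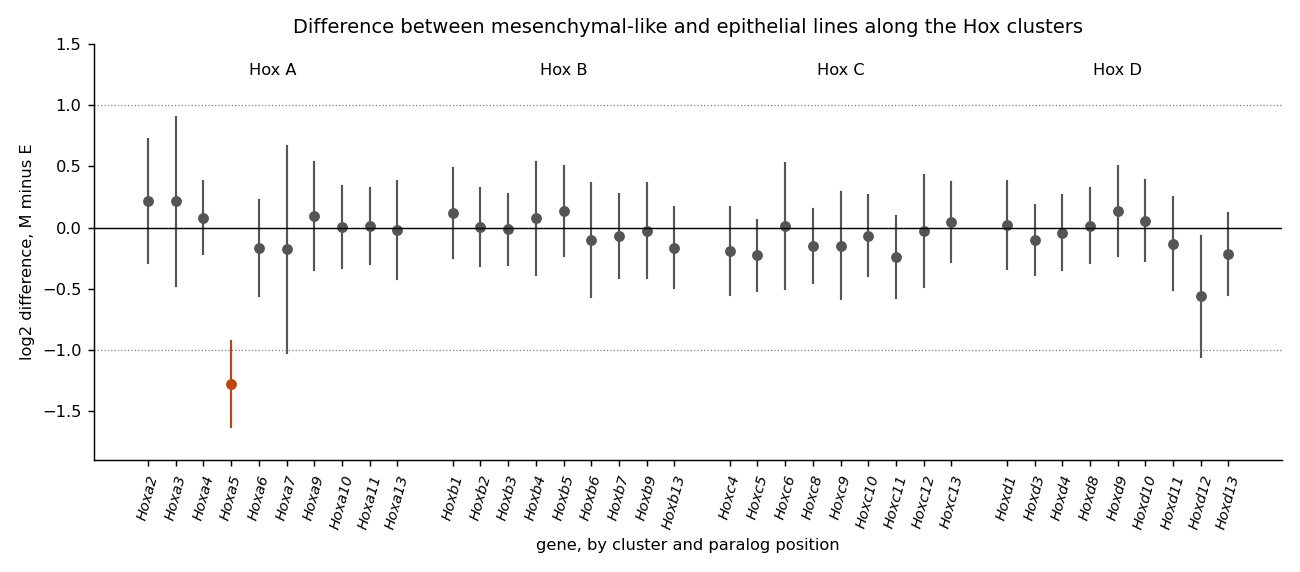
Log2 difference of the mesenchymal-like minus the epithelial lines (vertical axis) for each of the 37 Hox genes, by cluster and paralog position, with the limma 95% interval as a bar. Orange marks an adjusted p under 0.05, and dotted lines mark 2-fold. Hoxa5 stands at -1.28, and the intervals of 34 genes lie within the dotted lines.

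The intervals give the range of differences in listed values that fits the spread between lines, and near the background of the arrays they may understate a change in transcripts. For 34 of the 37 genes the 95% interval lay within 1 log2 unit on both sides of zero, and Hoxa5, Hoxa7 and Hoxd12 were the exceptions. Over the 36 genes that did not pass, the lowest bound was -1.05 and the highest 0.91. Hoxd12, a posterior gene that patterns the digits with its neighbours, had the lowest bound. It was at 5.14 in M1 and 5.07 in M2, against 5.46 in E1 and 5.87 in E2, a difference of -0.56 with an adjusted p of 0.230. Its M lines lay below its E lines, and E1 and E2 were 0.40 apart. It and Hoxa5 were the 2 Hox genes with an unadjusted limma p under 0.05, or 5.41%, beside 18% of all probe sets. That share is not matched for level. In the fit with dim probe sets left out, 3295 of 13845 probe sets and 1 of 9 Hox genes had such a p.

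In Hox A, the most varied cluster, the median difference was 0.01 over 10 genes. Apart from Hoxa5 the differences ran between -0.18 and 0.22. Hoxa2, which patterns the hindbrain and the second pharyngeal arch, was at 6.39 and 6.81 in M1 and M2, against 6.42 and 6.35 in E1 and E2. M2 was the high line. Hoxa3, which acts in thymus and parathyroid development, was at 6.44 and 7.00 in the M lines and 6.36 and 6.65 in the E lines, and M2 was again highest. Hoxa7 had the widest spread between the E lines and a wide one between the M lines, with 6.97 and 7.49 in M1 and M2, against 7.71 and 7.10 in E1 and E2. Its groups overlapped, and its difference of -0.18 had an interval from -1.02 to 0.67. The posterior genes of the cluster, Hoxa9, Hoxa10, Hoxa11 and Hoxa13, were below the median of all values in all 4 lines, and their differences lay between -0.02 and 0.10. Hoxa9 is a leukemia oncogene partner of Meis1, Hoxa10 and Hoxa11 act in the uterus, and Hoxa13 in the digits and urogenital tract.

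In Hox B the differences lay between -0.16 and 0.14 over 9 genes, with a median of -0.01, and none passed. Hoxb1, which specifies hindbrain segments, was at 7.49 and 7.68 in M1 and M2, against 7.39 and 7.53 in E1 and E2. Hoxb3 was at 7.44 and 7.42 in the M lines and 7.42 and 7.47 in the E lines, which overlapped. Hoxb7 and Hoxb9, both studied as drivers of invasion in human breast cancer cells, differed by -0.07 and -0.02. Hoxb9 was at 6.70 and 6.86 in M1 and M2, against 6.69 and 6.91 in E1 and E2. Hoxb13, a prostate gene whose ratio to another gene has been studied in human breast tumors, was at 6.41 and 6.30 in the M lines, below 6.45 and 6.59 in the E lines. In all 9 Hox B genes E2 was above E1, by at most 0.37, as it was in 28 of all 37 Hox genes. The median of E2 minus E1 was 0.09 over the Hox genes and 0.02 over all probe sets tested.

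Hox C was the only cluster with all its genes below the median of all values in every line. Its 9 genes had levels between 4.84 and 6.66, and the background of the arrays is not known, so these levels do not say whether the genes were transcribed. The median difference was -0.15 with a range from -0.24 to 0.05, and 7 of the 9 means were lower in the M lines, but none passed. Hoxc6 and Hoxc8, both found in mouse mammary tissue, differed by 0.02 and -0.15. Hoxc8 was at 6.07 and 6.05 in M1 and M2, against 6.26 and 6.16 in E1 and E2. Hoxc11 was at 5.58 and 5.45 in the M lines, below 5.69 and 5.81 in the E lines, with an adjusted p of 0.435.

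In Hox D the median difference was -0.04, and apart from Hoxd12 the differences lay between -0.21 and 0.13. Hoxd9, which acts with Hoxa9 and Hoxb9 in the mouse mammary gland during pregnancy, was at 6.78 and 6.56 in M1 and M2, against 6.50 and 6.58 in E1 and E2. Hoxd10, a target of miR-10b in human breast cancer cells, was at 5.57 and 5.67 in the M lines and 5.63 and 5.49 in the E lines, which overlapped. Hoxd11 was the 1 Hox D gene above the median of all values in every line, at 6.86 and 7.04 in M1 and M2, against 6.98 and 7.17 in E1 and E2. Hoxd13, the last gene of the cluster, was at 5.90 and 5.75 in the M lines, below 5.99 and 6.09 in the E lines.

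By position along the axis, the median difference was 0.02 over 7 anterior genes (paralogs 1 to 3), -0.08 over 14 central genes (4 to 8) and -0.02 over 16 posterior genes (9 to 13). Of the 37 genes, 21 had a lower mean in the M lines and 16 a higher one. Both M lines lay below both E lines in 9 genes, or 24.3%, beside 23.8% of all probe sets. These were Hoxa5, Hoxb13, Hoxc4, Hoxc5, Hoxc8, Hoxc11, Hoxd3, Hoxd12 and Hoxd13. Both M lines lay above both E lines in 1 gene, Hoxa4, beside 24.2% of all probe sets. These counts moved with scaling. With each array centred on its median they were 14 and 1, beside 29.2% and 19.1% of all probe sets, and with quantile normalization 12 and 0, beside 25.8% and 21.6%.

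No Hox gene passed for M1, the line without tumor formation. Against E1, E2 and M2 limma called 0 of the 37 genes, beside 0.094% of all probe sets, and 0 had an unadjusted p under 0.05. Hoxa5 differed by -0.80 in that comparison, with an adjusted p of 0.888. M1 was the highest or the lowest line in 16 of the 37 genes, or 43.2%, beside 52.2% of all probe sets. Without M2 the comparison sets M1 against the epithelial lines, and 1 Hox gene passed.

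Between the single arrays of M1 and M2, 0 Hox genes differed by 10-fold, beside 0.436% of all probe sets, and 0 by 2-fold, beside 5.86%. Hoxa3 was 0.56 log2 units lower and Hoxa7 0.52 lower in M1 than in M2, the 2 differences of at least 0.5. Between E2 and E1, 0 Hox genes differed by 2-fold, beside 2.24% of all probe sets, and Hoxa7 was 0.61 lower in E2. The median size of the difference between M1 and M2 was 0.13 over the Hox genes and 0.18 over all probe sets. Between E2 and E1 it was 0.13 and 0.14. For 25 of the 37 genes M1 and M2 were farther apart than the type means, and for 22 E2 and E1 were.

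**Figure D3:**
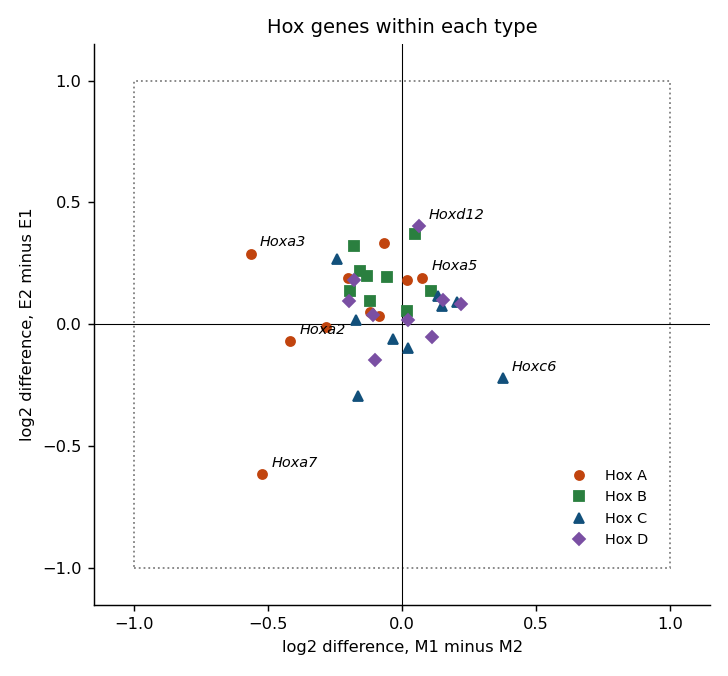
Log2 difference M1 minus M2 (horizontal axis) and E2 minus E1 (vertical axis) for each of the 37 Hox genes, coloured by cluster, 1 array per line. The dotted square marks 2-fold. All points lie inside it, and Hoxa7, at -0.52 and -0.61, and Hoxa3, at -0.56 and 0.29, lie farthest out.

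The genes around the clusters were followed from a list of 37 names that included flanking genes, antisense and long non-coding RNAs and microRNA genes, of which 24 had a probe set. Skap2, an adaptor protein gene, fell, and none rose. That is 4.17% of the 24, beside 3.73% of all probe sets called in either direction, so the list as a whole was near the background. Skap2 was at 9.26 in M1 and 9.01 in M2, against 10.64 in E1 and 10.96 in E2, a difference of -1.67 with an adjusted p of 0.0284. Both M lines were below both E lines. Skap2 lies at chr6:51859165-52012549, 189 kb from Hoxa5. The measured genes between Skap2 and Hoxa5, which were Hoxa2, Hoxaas2, Hoxa3 and Hoxa4, did not pass. At the other end of the cluster Hottip, a non-coding RNA that keeps distal Hox A genes active, was at 5.27 and 5.35 in M1 and M2, against 5.19 and 5.11 in E1 and E2. Evx1, the homeobox gene that closes the cluster, differed by 0.01. The call of Skap2 was lost without E1 (adjusted p 0.142) and without E2 (0.182).

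**Figure D4:**
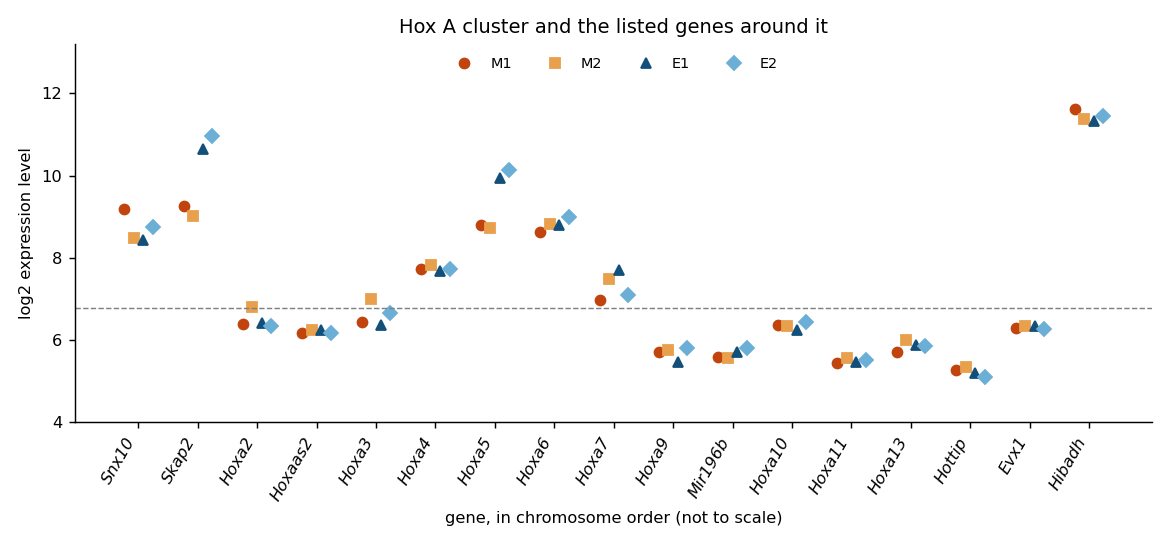
Log2 expression level (vertical axis) in M1, M2, E1 and E2 of the measured genes of the Hox A region in chromosome order, not to scale, 1 point per array. The dashed line is the median of all values, 6.78. Skap2 and Hoxa5 have both M points below both E points and passed the test. The genes between them did not.

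The clusters also hold microRNA genes of the miR-10 and miR-196 families and Mir615. MiR-10b is known for promoting invasion of human breast cancer cells, and miR-196 targets Hox messages such as Hoxb8. The mature sequences are shown because each pair shares its seed, bases 2 to 8 from the 5′ end, in capitals, with RefSeq as the source.
miR-10a-5p: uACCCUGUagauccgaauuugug
miR-10b-5p: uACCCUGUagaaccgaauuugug
miR-196a-5p: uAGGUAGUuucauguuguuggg
miR-196b-5p: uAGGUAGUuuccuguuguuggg
Counted from the 5′ end, miR-10a-5p and miR-10b-5p differed by U12A and miR-196a-5p and miR-196b-5p by A12C. The values of the probe sets of these genes were close across the lines. Except for Mir615, they lay below the median of all values, where signal over background is unknown. Mir10a, in Hox B, was at 3.66 and 3.64 in M1 and M2, against 3.70 and 3.59 in E1 and E2. Mir10b, in Hox D, was at 3.62 and 3.61 in the M lines and 3.63 and 3.39 in the E lines. Mir196b, beside Hoxa9 and Hoxa10, differed by -0.18, Mir196a-1 by -0.08, Mir196a-2 by -0.12 and Mir615 by -0.05, and none passed. Whether these probe sets read the mature microRNAs or their precursors is not given in the sources used here.

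The partners of Hox proteins and related genes were followed from a list of 12, of which 11 had a probe set. Most encode TALE homeodomain proteins, some of which bind DNA beside Hox proteins. Meis2 rose and Pknox2 fell, which is 18.2% of the 11 beside 3.73% of all probe sets, and the median difference was 0.09. Meis2 was at 11.17 in M1 and 10.89 in M2, against 9.12 in E1 and 9.23 in E2, a difference of 1.86 with an adjusted p of 0.0152. Pknox2, a related protein also called Prep2, was at 5.43 and 5.43 in the M lines, against 7.51 and 7.90 in the E lines, a difference of -2.28 with an adjusted p of 0.0137. Neither overlapped between the types. Meis1 was at 8.56 and 8.84 in M1 and M2, against 8.21 and 8.09 in E1 and E2, with an adjusted p of 0.178. Pbx3 differed by -0.01. Without E1 or without E2 the adjusted p of Meis2 was 0.151 and 0.149, and that of Pknox2 0.0746 and 0.0910. With values below the median raised to it, the difference of Pknox2 was -0.93 with an adjusted p of 0.299, and with the clone number as a block its adjusted p was 0.0633.

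Of the Polycomb genes, which silence Hox clusters, 30 of 32 had a probe set, 0 rose and 1 fell, with a median of -0.06. That is 3.33% called, beside 3.73% of all probe sets. The one that fell was Pcgf6, a subunit of a variant PRC1 complex, at 9.68 and 9.60 in M1 and M2, against 10.86 and 10.92 in E1 and E2. Its difference was -1.25 with an adjusted p of 0.0182, which was 0.162 without E1 and 0.180 without E2. Ezh2, the methyltransferase of PRC2, was at 11.93 and 11.42 in the M lines and 11.84 and 12.04 in the E lines, and its partners Eed and Suz12 differed by -0.26 and -0.17. Bmi1, a PRC1 subunit, differed by -0.40 and did not pass. Of 19 Trithorax group genes and opposing demethylases, 18 were measured and 0 passed limma, with a median of -0.32. Of the 18, 9 had an unadjusted limma p under 0.05, beside 18% of all probe sets. That share is not matched for level, and the values of these genes were all above the median of all values. Kmt2a, which maintains Hox expression in blood cells, was at 10.36 and 10.63 in M1 and M2, against 10.36 and 10.34 in E1 and E2. Kdm6a and Kdm6b, which remove the mark that PRC2 lays, differed by -0.93 and -0.83 with adjusted p values of 0.180 and 0.237.

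Retinoic acid and Cdx proteins switch on Hox genes in the embryo. Of 21 listed genes of that kind 20 were measured, 1 rose and 0 fell, with a median of 0.07. That is 5% called, beside 3.73% of all probe sets. Crabp2, which carries retinoic acid to its receptor, was at 9.25 and 9.38 in M1 and M2, against 5.64 and 6.26 in E1 and E2, a difference of 3.37 with an adjusted p of 0.0130, which was 0.0670 without E1 and 0.0624 without E2. Aldh1a1, an enzyme that makes retinoic acid, was at 12.57 in M1 and 8.0 in M2, against 5.61 in E1 and 5.83 in E2. M1 stood far above M2, and the adjusted p was 0.277. The receptor genes Rara and Rarb differed by 0.28 and 0.57 and did not pass, and Cyp26a1, which breaks retinoic acid down, differed by -0.10.

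**Figure D5:**
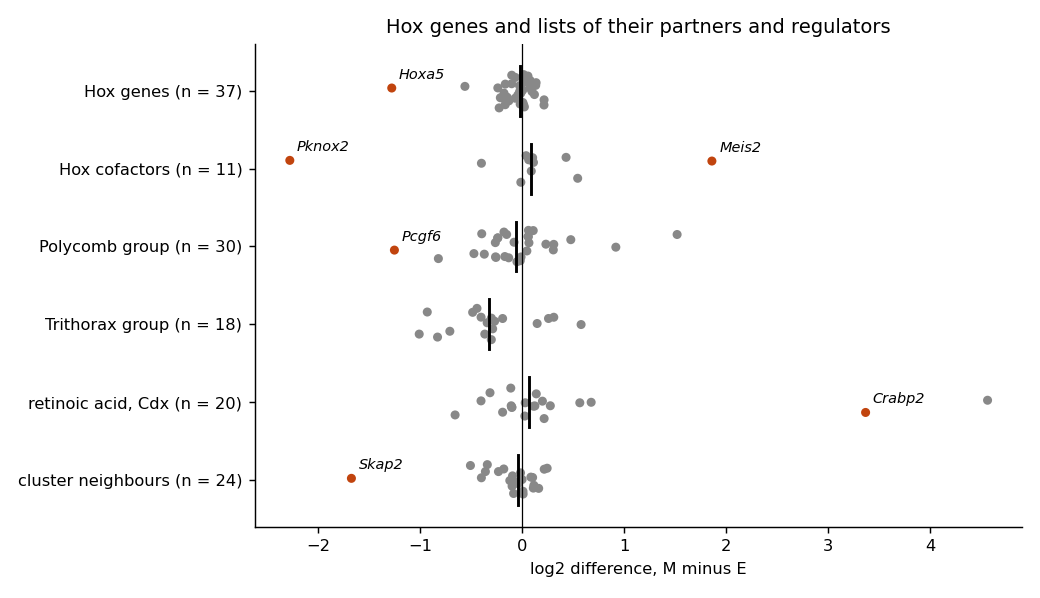
Log2 difference of the mesenchymal-like minus the epithelial lines (horizontal axis) for the Hox genes and 5 lists of partners, regulators and neighbours, 1 point per gene, with vertical scatter for legibility. Black bars are medians and named orange points passed limma. The Hox median is -0.02, and 1 Hox gene, Hoxa5, passed.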

How the data were processed

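RNA of 4 clonal cell lines was hybridised to Affymetrix mouse gene arrays, 1 per line. RNA preparation is given as a column kit in the methods and as Trizol in the labels. As deposited, the values are log2 expression levels, made by the authors in Partek. Background correction and normalization are not given in the sources used here, and a fold is a ratio of listed values, which may understate a change near background. Values were used without further scaling.

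Probe sets were named through the platform annotation. Of 35556, 21789 had 1 gene symbol and 1621 several, and 0 symbols changed through gene identifiers. limma 3.58.1 in R 4.3.3 (lmFit, eBayes, 2 residual degrees of freedom) compared M1 and M2 with E1 and E2, and M1 with the other lines, over 23410 probe sets with a symbol, with Benjamini-Hochberg adjustment and a threshold of 0.05. In fits that leave 1 line in a type, that line is assumed to vary like the others. M1 against M2 and E2 against E1 are single arrays without a test. Precision is limited by the number of arrays.

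By rule, values by line are given for Hox genes called by limma or 2-fold apart, and for genes of the lists of partners, regulators and neighbours called or 4-fold apart, up to 5 a list. Of the markers, 5 were named by rule. Other genes were chosen after their values were seen. The members, lists and rule were chosen with earlier results of these data known. Alternatives were quantile normalization, centring, a raised floor, leaving out dim probe sets, all probe sets, gene means, an intensity trend, other thresholds, a block on clone number and leaving out each line. Some items are not reported here. Sequences and coordinates are RefSeq, GRCm38.p6.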

Additional observations from a re-analysis of the deposited data

How the results depend on the processing

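Hoxa5 kept its direction in every setting run, with a limma adjusted p between 0.0228 and 0.185. It passed with quantile normalization (0.0252), centring (0.0301), dim probe sets left out (0.0239), all probe sets tested (0.0426), gene means (0.0228) and an intensity trend (0.0443). The count of Hox genes called between the types was 0, in place of 1, with values below the median raised to it (Hoxa5 0.122, with its difference unchanged at -1.28). Leaving out each line gave 0 to 1 called. With the replicate block on clone number it was 0, and 319 probe sets were called in all in place of 874. The numbers mark no shared origin. The differences between clones 1 and 2 in the M and the E lines had a correlation of -0.04 across 23410 probe sets. The probe sets are not independent and each line is 1 array, so the correlation does not decide whether the lines pair. For M1 against the other lines, leaving out a line gave 0 to 1 called Hox genes, and at 4-fold between the types the count was 0. The cause of these changes was not tested.

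Meis2, Pknox2, Pcgf6 and Skap2 also lost their calls with the raised floor (adjusted p 0.123, 0.299, 0.0578 and 0.182) and with the block (0.0803, 0.0633, 0.0888 and 0.122). Their differences were unchanged in both, at 1.86 for Meis2, -1.25 for Pcgf6 and -1.67 for Skap2, except that of Pknox2, which was -0.93 with the raised floor. Crabp2 kept its call in both. Of the 36 Hox genes not called, 6 changed sign with quantile normalization, 6 with centring, 14 with the raised floor and 5 to 10 without a line. Leaving out M1 or M2 left no value for M1 against M2, and leaving out M1 none for M1 against the others. Most Hox genes lay below the median of all values, where signal over background is unknown.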
